A study of Mus musculus with 22 samples.

Results

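The mitochondrial ribosomal protein genes were taken from the deposited expression table as every row whose gene symbol begins with Mrpl or Mrps followed by a digit. The rule found 76 genes of 23359 in the table, 47 named for the large subunit (Mrpl) and 29 for the small subunit (Mrps). The symbol does not always give the place of the protein, as for Mrps18a and Mrps36 below. No pseudogene row had to be left out. The rule used names alone, not levels. Poly-A RNA was sequenced from cells of wild-type male C57BL/6 mice at postnatal week 10 to 14. All 22 libraries share that genotype, strain and sex. The 8 groups were sedentary cardiomyocytes (CM, 3 libraries), cardiac fibroblasts (CF) 3 days (3 libraries) and 10 days (3 libraries) after TAC, CF 5 days after MI (2 libraries), CF after 4 days (3 libraries) and 10 days (3 libraries) of swimming, CF 3 days after sham surgery (2 libraries) and sedentary CF (3 libraries). TAC and MI are given only as abbreviations, and are the usual ones for transverse aortic constriction, a model of pressure overload, and myocardial infarction. The labels do not say whether libraries of a group came from separate animals or pools, so a p-value here reflects only how far these libraries scatter, which may be technical.

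Mitochondria hold their own ribosome, which translates the few messenger RNAs of the mitochondrial genome. These encode core subunits of the respiratory chain and the ATP synthase. The ribosomal RNAs come from the mitochondrial genome, whereas all of its proteins are encoded in the nucleus, made in the cytosol and imported. Cardiomyocytes are densely packed with mitochondria, and human mutations in several of these proteins cause cardiomyopathy.

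The sequences just before the start of 7 genes are shown because these genes span the results described below. Mrpl34 and Mrpl42 were among the genes with the largest cardiomyocyte difference, Mrps18b and Mrps2 among those with the smallest. Mrpl52 had the largest difference after 3 days of TAC, and Mrps12 and Mrps22 code for proteins near the decoding site and for one linked in humans to cardiomyopathy. The letters are the 80 bases before the start in RefSeq (GRCm38.p6), 5′ to 3′ on the gene's strand. None of the 7 stretches overlapped an annotated exon, and capitals mark an ETS-family (GABP) motif within these 80 bases only.
Mrpl34: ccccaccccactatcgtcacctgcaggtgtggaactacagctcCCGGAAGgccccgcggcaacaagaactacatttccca
Mrpl52: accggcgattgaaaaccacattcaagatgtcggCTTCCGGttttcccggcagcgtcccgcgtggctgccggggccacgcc
Mrps22: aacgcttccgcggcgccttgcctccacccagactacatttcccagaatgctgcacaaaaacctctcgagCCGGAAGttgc
Mrpl42: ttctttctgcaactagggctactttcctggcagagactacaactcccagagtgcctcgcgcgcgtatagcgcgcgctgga
Mrps12: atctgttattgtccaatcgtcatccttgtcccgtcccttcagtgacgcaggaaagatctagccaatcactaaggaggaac
Mrps18b: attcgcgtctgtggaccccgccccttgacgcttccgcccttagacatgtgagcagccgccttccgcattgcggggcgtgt
Mrps2: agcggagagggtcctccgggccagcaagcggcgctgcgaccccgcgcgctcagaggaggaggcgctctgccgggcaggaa

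The stretches lie at chr8:71464846-71464925 (Mrpl34, plus strand), chr14:54426829-54426908 (Mrpl52, plus), chr9:98601680-98601759 (Mrps22, minus), chr10:95501950-95502029 (Mrpl42, minus), chr7:28741822-28741901 (Mrps12, minus), chr17:35916441-35916520 (Mrps18b, minus) and chr2:28467986-28468065 (Mrps2, plus). Over the RefSeq window of 300 bases (250 before and 50 after the start), 67 of the 76 genes matched a promoter. The ETS motif CCGGAAG, read on both strands, was in 24 of these 67 (35.8%), against 9.93% of the 27025 genes with a promoter. The YY1 motif AAGATGGC was in 12 (17.9%) against 3.19% of all genes, and the palindromic NRF1 motif in 3 (4.48%) against 1.07%. The TATA box TATAAA was in 5 (7.46%) against 15.7%. At least 1 of the ETS, YY1 and NRF1 motifs was in 35 genes (52.2%), against 13.4% of all genes. Outside the stretches shown above, this window also held an ETS motif in Mrps12, Mrps18b and Mrpl52. It held a YY1 motif there in Mrpl42 and Mrps12. The cytosolic ribosomal protein genes had the ETS motif in 23 of 56 promoters (41.1%), so this motif was not particular to the mitochondrial set. They had the YY1 motif in 8.93% and the NRF1 motif in 3.57%. The respiratory chain subunit genes had these in 13.4% and 7.46% of promoters. Both motifs were thus above the shares of all genes in those sets as well. A match is a description of letters and not of binding.

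Per library, the values are FPKM (fragments per kilobase of transcript, scaled to the mapped fragments of the library), a unit that gives no absolute depth. None of the 76 genes was listed at 0 in any library. All 76 were at 1 FPKM or more in every CM library, against 48 to 66 in the sedentary CF libraries. The summed level of the 76 genes was 2449, 2023 and 2056 FPKM in sedentary CM, and 176, 150 and 255 FPKM in sedentary CF. Every CM library was thus far above every CF library. In the fibroblasts of the other groups the sum was 615, 537 and 768 FPKM after 3 days of TAC, 495, 552 and 681 FPKM after 10 days of TAC, and 210 and 248 FPKM after MI. It was 507, 823 and 511 FPKM after 4 days of swimming, 400, 459 and 421 FPKM after 10 days of swimming, and 205 and 185 FPKM in sham. The summed FPKM of the TAC and swim libraries lay below that of every CM library and above that of every MI, sham and sedentary CF library. Total FPKM differed between groups, averaging 202229 after 4 days of swimming and 100440 in sedentary CF. As a share of all FPKM the 76 genes made up 0.342 to 0.453% in the 3 day TAC libraries, 0.357 to 0.439% in the 10 day TAC libraries and 0.209 to 0.245% in the MI libraries. The share was 0.248 to 0.401% after 4 days of swimming, 0.271 to 0.289% after 10 days of swimming, 0.162 to 0.173% in sham and 0.176 to 0.213% in sedentary CF. By share the lowest 4 day swim library thus lay next to the highest MI library.

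**Figure D1:**
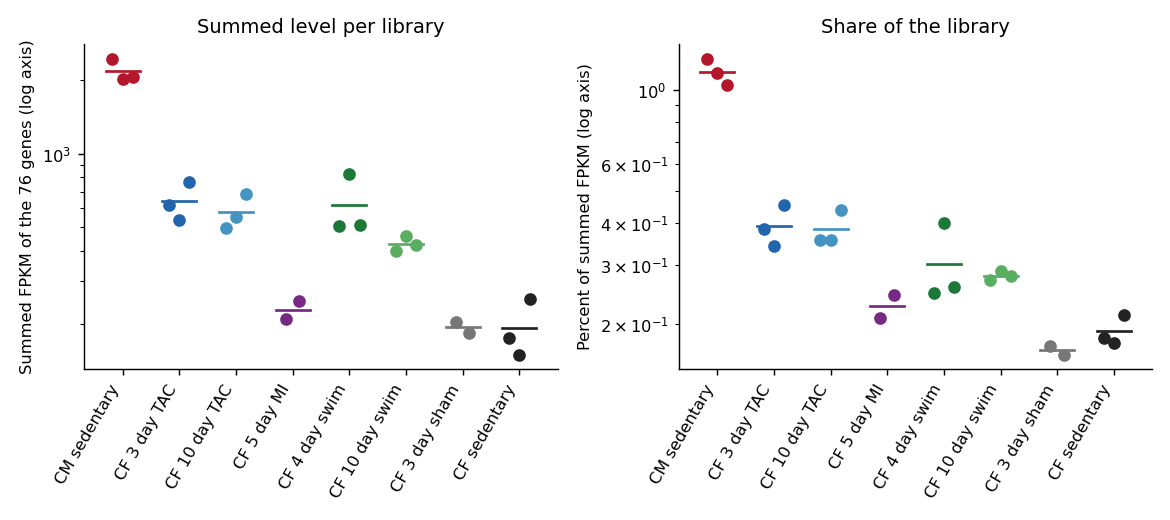
Summed FPKM of the 76 genes (left, log axis) and their percent of each library's summed FPKM (right, log axis); each point is 1 library, each line a group mean. The CM libraries lie between 2023 and 2449 FPKM, and the sedentary CF libraries between 150 and 255 FPKM.

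On average the sum was 2176 ± 237 FPKM in CM and 194 ± 54.4 FPKM in sedentary CF (SD, n = 3 each), a ratio of 11.2. As a share of all FPKM in the library it was 1.13 ± 0.101% in CM and 0.191 ± 0.0199% in sedentary CF. Markers bore out the labelled cell types: the summed level of 12 cardiomyocyte genes was 13143 to 16915 FPKM in CM and 62.3 to 336 FPKM in sedentary CF, and that of 10 fibroblast genes was 67.7 to 140 FPKM in CM and 1110 to 1365 FPKM in sedentary CF. In the 19 CF libraries none of the 12 cardiomyocyte genes was at 0, and 7 were at 1 FPKM or more in every one. Leukocyte markers summed to 50.6 to 156 FPKM in CM and 383 to 532 FPKM in sedentary CF (7 of 7 tested lower in CM). Endothelial markers summed to 24.6 to 43.7 and 39.9 to 55.5 FPKM (1 of 6 lower). Pericyte and smooth muscle markers summed to 35.5 to 57.4 and 15.8 to 26.3 FPKM (2 of 4 higher, 1 lower). The part of these other cell types in the result was not tested. In bulk samples, fewer cells of a type and less RNA per cell cannot be told apart.

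All 76 genes were higher in sedentary CM than in sedentary CF (adjusted p under 0.05, limma on log2(FPKM + 1)), against 38.7% of the 10371 genes tested, and none was lower, against 38.6%. Of the 76, Mrpl1, Mrpl19 and Mrps25 fell short of the filter over the CF libraries alone. They entered this test through their CM levels, so their calls add no support. The median log2 difference was 2.46, against -0.05 over all genes tested. The 47 Mrpl genes had a median of 2.45 and the 29 Mrps genes of 2.53. For 75 of the 76 genes every CM library lay above every CF library, which held for 39.1% of all genes tested. The exception was Mrps18b. The ratio of mean FPKM ran between 1.65 and 53.6 over the 76 genes, with a median of 8.41. It was above 4 for 71 genes and above 16 for 17.

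The gene with the largest difference, Mrpl28, codes for a protein of the large subunit (mm10 chr17:26123503-26126613, plus strand). It had 79.7, 56.3 and 55.2 FPKM in CM, against 0.98, 0.99 and 1.60 FPKM in sedentary CF. The groups were widely separated, and the log2 difference was 4.88 ± 0.23 (SE; adjusted p = 1.85e-13, limma). Mrpl14, a large subunit protein conserved from bacteria, had 137.8, 83.99 and 87.6 FPKM in CM, against 1.90, 2.23 and 4.63 FPKM in sedentary CF. Its log2 difference was 4.76 ± 0.34 (SE). Its locus overlaps Tmem63b on the other strand. Mrpl42 had 149.3, 135.7 and 162.3 FPKM in CM, against 4.35, 3.40 and 6.28 FPKM in sedentary CF, a log2 difference of 4.75 ± 0.21 (SE). Mrpl53 (4.31), Mrpl34 (4.23) and Mrpl12 (4.15) followed. The row of Mrpl53 overlaps another annotated gene on its strand, Gm42688, so its reads may be shared. Mrpl12, which in human cells also binds the mitochondrial RNA polymerase, had 123.3, 104.2 and 76.7 FPKM in CM, against 5.00, 2.96 and 6.65 FPKM in sedentary CF.

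At the other end, Mrps18b had 7.97, 6.47 and 9.77 FPKM in CM, against 4.24, 2.88 and 7.57 FPKM in sedentary CF. The groups overlapped, the log2 difference was 0.68 ± 0.29 (SE), and the adjusted p was 0.0373 (limma). The call for Mrps18b was lost without the first CM library (adjusted p = 0.0716, limma), the third (0.134), the first CF library (0.0906) or the second (0.207). It was also lost after removal of a trend with transcript length and GC (adjusted p = 0.861, limma). Mrpl17 (0.76), Mrps2 (0.83), Mrps25 (0.94), Mrps6 (1.14) and Mrpl19 (1.23) had the next smallest log2 differences, and were singled out after their values were seen. The scale, log2(FPKM + 1), understates the change of low genes such as Mrps25 and Mrpl19. Mrps25 had a mean of 1.61 FPKM in CM and 0.364 FPKM in sedentary CF, a ratio of 4.43. Mrpl19 had 2.06 FPKM in CM and 0.310 FPKM in sedentary CF, a ratio of 6.66. Both ratios were above that of Mrps30 (3.87) and below the median of the 76 genes (8.41). Mrps2 lost its call without the third CM library or the second CF library. Mrps6 overlaps Slc5a3 on its strand, so reads may be shared.

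The 3 paralogs of the bacterial S18 protein differed from each other. Mrps18a, a paralog placed in the large subunit in human structures, had 36.7, 30.7 and 28.7 FPKM in CM, against 4.05, 2.79 and 5.65 FPKM in sedentary CF. Mrps18c had 14.4, 15.3 and 13.1 FPKM in CM, against 1.17, 1.18 and 2.72 FPKM in sedentary CF. Their log2 differences were 2.71 and 2.55, against 0.68 for Mrps18b. In sedentary CF the order of mean level was Mrps18b (4.90 FPKM), Mrps18a (4.16 FPKM) and Mrps18c (1.69 FPKM), with overlapping libraries for the first pair. In CM the order was Mrps18a (32.0 FPKM), Mrps18c (14.3 FPKM) and Mrps18b (8.07 FPKM), with no overlap between libraries of neighbours. These orders are on the FPKM scale, which is per length but still varied with transcript length in these libraries, with a slope that differed between the cell types.

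Of the genes linked to human disease of this ribosome, Mrpl3, Mrpl44 and Mrps22 had log2 differences of 2.33, 3.07 and 1.96, and Mrps16, Mrps34 and Mrps7 of 3.93, 3.50 and 2.68. Mrps34 overlaps Nme3 on its strand. Mrps12, which lies near the decoding site, had a difference of 2.94, Mrps5 of 1.53, and the large subunit genes Mrpl1 of 1.96 (Mrpl11 had 4.88 FPKM in CM and 0.466 FPKM in sedentary CF). Mrps36, whose product is now known as a part of the alpha-ketoglutarate dehydrogenase complex, had 3.97. Mrps21 was the highest gene in CM (156 FPKM) and Mrpl33 the highest in sedentary CF (11.6 FPKM). The lowest were Mrps25 in CM (1.61 FPKM) and Mrpl19 in sedentary CF (0.310 FPKM). Across the 76 genes the mean levels in the 2 cell types had a Spearman rho of 0.722, a description over genes that share their libraries.

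**Figure D2:**
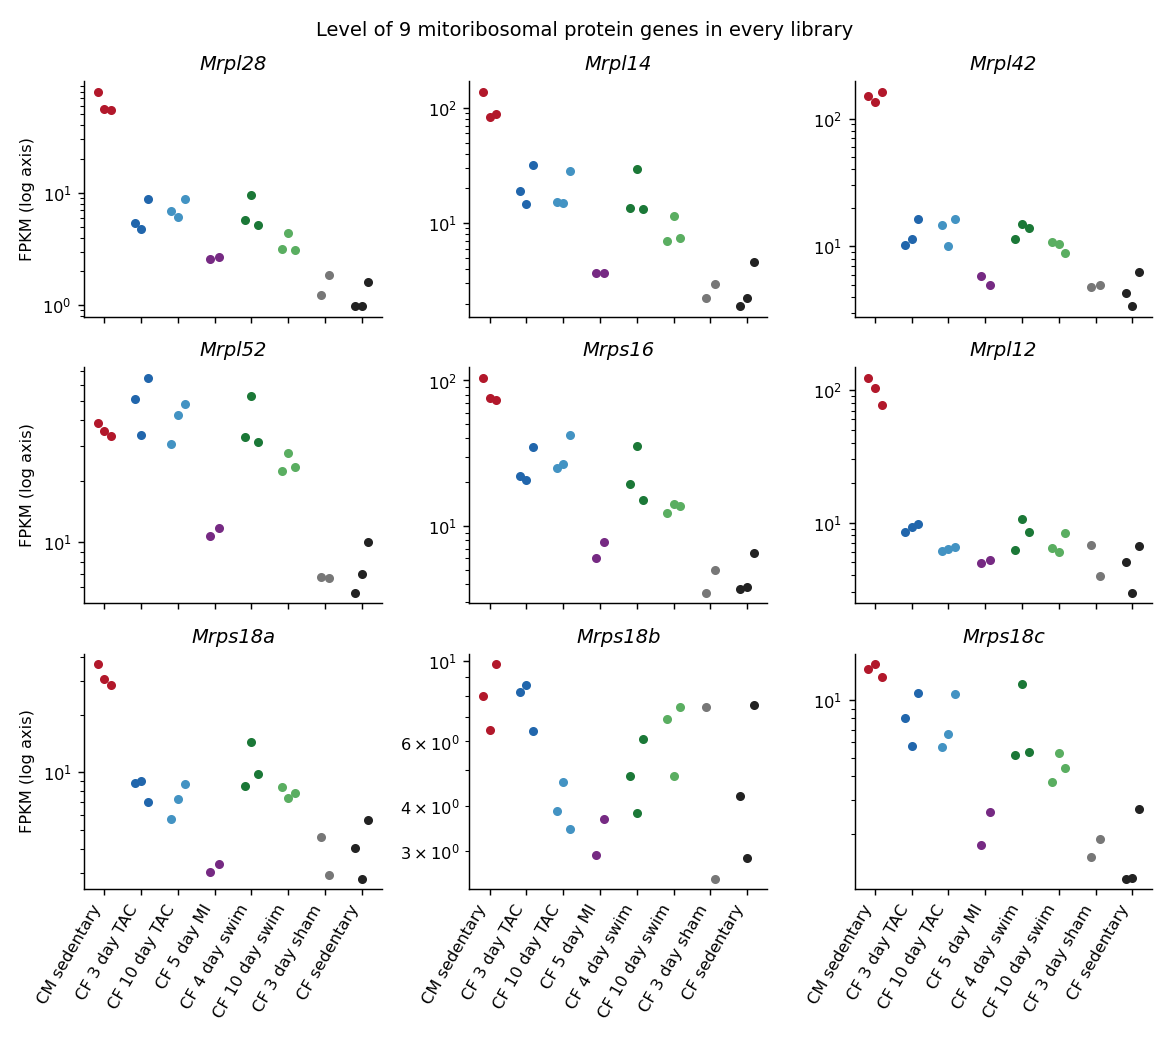
FPKM (log axis) of 9 genes in each of the 22 libraries, by group; each point is 1 library and each panel has its own axis. The CM libraries of Mrpl28, Mrpl14, Mrpl42, Mrps16, Mrpl12, Mrps18a and Mrps18c lie above all fibroblast libraries, whereas those of Mrps18b and Mrpl52 overlap the fibroblasts.

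Other genes of mitochondrial translation were also higher in CM. All 7 tested mitoribosomal proteins with other symbols (median 2.63) and all 13 tested translation factors (median 1.75) were higher. They included Chchd1 (3.84), Pdf, the deformylase of nascent mitochondrial proteins (3.23), and Tufm, the mitochondrial elongation factor Tu (2.89). Of 14 tRNA synthetases, 13 were higher and 1, Gars, which also serves the cytosol, was lower (log2 difference -1.77, median of the list 1.57). The list called tRNA synthetases here also holds Qrsl1, Gatc and Pet112, which code for amidotransferase subunits and not synthetases. Of 25 assembly factors, 23 were higher and none lower (median 1.31). Malsu1, an assembly factor of the large subunit, had 2.78. The deposited expression table held 15 translation factors, 22 tRNA synthetases and 26 assembly factors, and those below the filter were not tested. A gene could pass the filter on its CM libraries alone. Over the 19 CF libraries only 8 translation factors, 7 tRNA synthetases and 19 assembly factors passed. The others entered here through their CM levels. Of 15 genes of mitochondrial transcription and RNA processing, 10 were higher and 1 lower (median 1.06). Only 11 of the 15 passed the filter over the CF libraries, and the others entered through their CM levels. Hsd17b10, a subunit of mitochondrial RNase P, had 3.90, and Tfam, the mitochondrial DNA packaging factor, had 0.47, which did not pass (adjusted p = 0.105, limma). Respiratory chain subunits had 81 of 83 higher (median 4.64), and cytosolic ribosomal proteins 46 higher and 3 lower of 76 (median 0.53). Over the CF libraries 81 respiratory chain subunits and all 76 cytosolic ribosomal proteins passed the filter. With length and GC removed, the cytosolic ribosomal proteins had 18 higher and 14 lower and a median of 0.03.

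Of 10 regulators of mitochondrial biogenesis 4 were higher and 5 lower, near the shares over all genes tested (38.7% and 38.6%). Only 7 of the 10 passed the filter over the CF libraries alone. The others entered this test through their CM levels, so their calls add no support. Esrra, a nuclear receptor that activates mitochondrial genes, had 23.3 ± 4.06 FPKM in CM and 0.669 ± 0.122 FPKM in sedentary CF (SD, n = 3 each). Ppargc1a, its coactivator, had 2.47 ± 1.32 FPKM in CM and 0.0337 ± 0.0216 FPKM in sedentary CF. Myc was lower, with a mean of 0.947 FPKM in CM and 53.2 FPKM in sedentary CF (log2 difference -4.91). Gabpa, a subunit of the factor that binds the ETS motif above, had a log2 difference of -0.59 and Yy1 one of -0.53, and both were called lower.

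**Figure D3:**
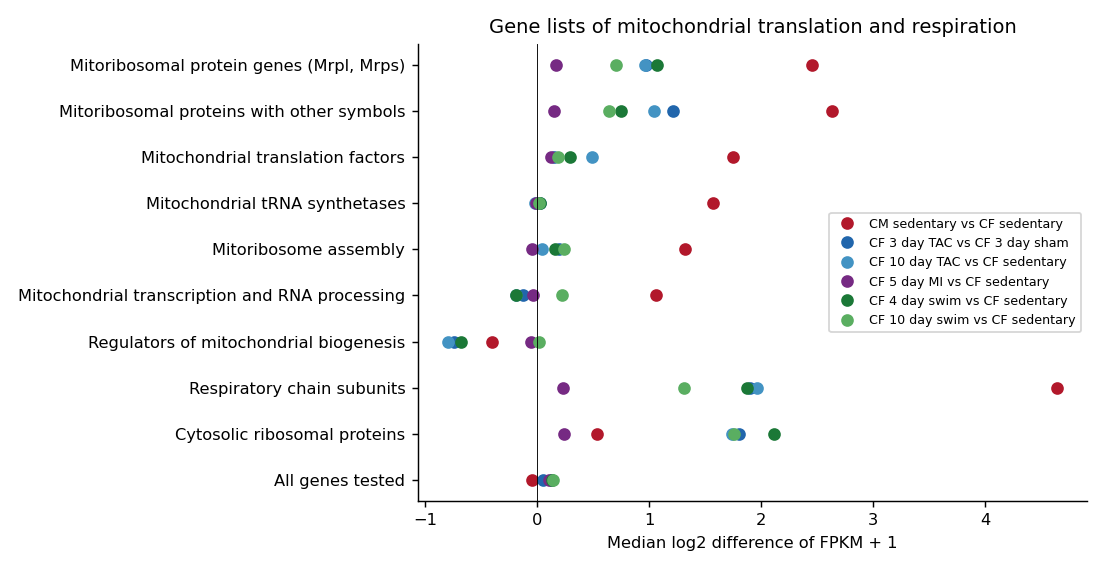
Median log2 difference of FPKM + 1 (horizontal axis) for each gene list (rows) in 6 comparisons (colours). The mitoribosomal protein genes have a median of 2.46 in CM and of 0.17 after MI, and all genes tested lie between -0.05 and 0.14.

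Transcript length moved with these differences. The slope of log2(FPKM + 1) on log2 transcript length was -0.525 to -0.593 in CM libraries and -0.146 to -0.240 in sedentary CF libraries. Among fibroblasts it ran between -0.414 and -0.700 over the TAC and swim groups and between -0.173 and -0.194 over the MI and sham groups. The part of this slope in the differences was not tested beyond the length and GC corrections given here. The 76 genes are short, with a median length of 1038 bases against 1920.5 for all genes tested with a length. Across all genes the log2 difference between CM and sedentary CF had a Spearman rho with length of -0.26, and across the 76 genes of -0.44, both descriptions over genes. The 26 shortest of the 76 (405 to 803 bases) had a median log2 difference of 2.98, against 0.44 for other genes of that length. The 25 longest (1418 to 6073 bases) had 1.96, against -0.20. Relative to genes within 25% of its own length, each of the 76 genes was above the median, with a median excess of 2.18. With the length trend removed from each library 74 genes were called higher (39.4% of all genes), and with length and GC removed 73 (39.9%) with a median of 2.18. None was lower by either (35.4% and 35.7% of all genes).

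**Figure D4:**
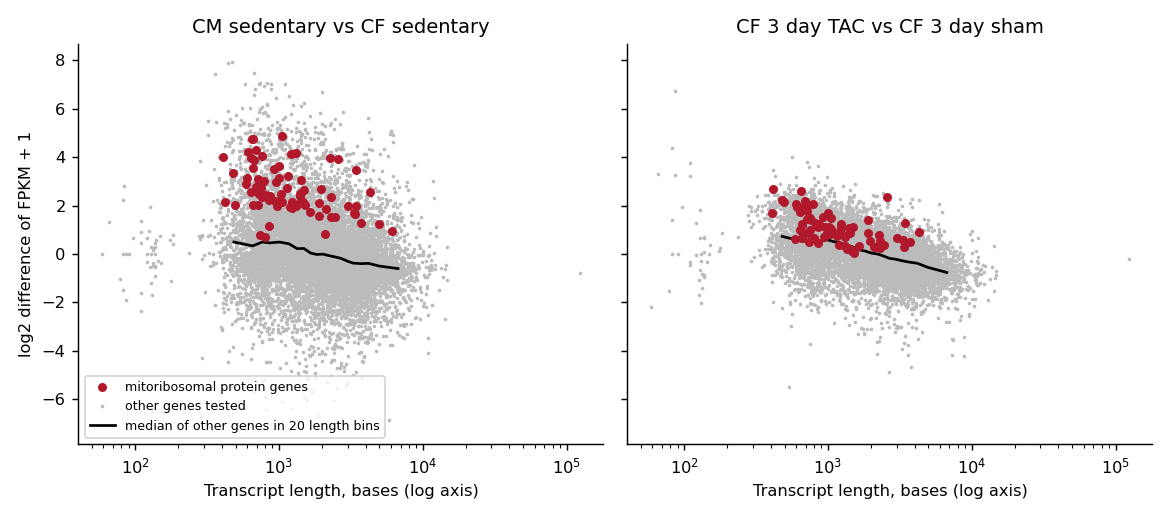
log2 difference of FPKM + 1 against transcript length (log axis) for CM against sedentary CF (left) and CF after 3 days of TAC against sham (right). Red points are the mitoribosomal protein genes, grey points the other genes and the black line their median in 20 length bins. In CM the red points of the 26 shortest genes have a median of 2.98, against 0.44 for other genes of that length.

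In fibroblasts 73 of the 76 genes passed the filter (1 FPKM or more in at least 2 of the 19 CF libraries), and Mrpl1, Mrpl19 and Mrps25 did not. After 3 days of TAC, 58 of 73 genes rose against sham (31.3% of 9425 genes tested) and none fell (25.8%). The median was 0.97, against 0.05 over all genes. In 67 of 73 genes the 3 TAC libraries lay above both sham libraries, as in 38.6% of all genes. Mrpl52, a large subunit protein of mitochondria, had 51.3, 34.0 and 64.8 FPKM after TAC, against 6.72 and 6.71 FPKM in sham, a log2 difference of 2.68 ± 0.29 (SE; adjusted p = 2.99e-06, limma). Mrpl14 (2.60) and Mrps16 (2.33) followed. Mrps12 had a difference of 2.01 and Mrps18c of 1.73. Mrpl3 (0.53), Mrps22 (0.37) and Mrps18b (0.67) did not pass.

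The difference after 3 days of TAC had a Spearman rho with length of -0.48 over all genes and -0.58 over the 73. The 26 shortest had a median of 1.60 (25 of 26 higher), against 0.58 for other genes of that length. The 22 longest tested had 0.53 (12 of 22 higher), against -0.16. Removing length and GC left 50 genes higher (29.6% of all genes) and a median of 0.74: 45 of the 58 calls remained, 13 were lost and 5 were gained. With length alone removed 50 were higher (31%). None was lower by either (20.3% with length and GC, 21.1% with length). Relative to genes of like length, 65 of the 73 lay above the median, with a median excess of 0.61. Cardiomyocyte markers summed to 191 to 218 FPKM after TAC and 205 to 237 FPKM in sham (3 of 10 tested lower), and leukocyte markers to 409 to 561 FPKM after TAC and 599 to 1260 FPKM in sham (3 of 7 lower). Fibroblast markers summed to 775 to 1164 FPKM after TAC and 1448 to 1712 FPKM in sham (2 of 10 higher, 3 lower), and pericyte and smooth muscle markers to 4.37 to 8.25 FPKM after TAC and 13.9 to 16.5 FPKM in sham (3 of 4 lower). Endothelial markers summed to 8.59 to 23.4 FPKM after TAC and 16.9 to 29.5 FPKM in sham (2 of 6 lower). The part of these values in the result was not tested.

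After 10 days of TAC, 53 of 73 genes rose against sedentary CF (38.8% of all genes tested) and none fell (27%), with a median of 0.97 against 0.12. No 10 day sham group was given, so effects of surgery and of TAC cannot be told apart here. The comparisons against sedentary CF share those 3 libraries. Mrps16, a small subunit protein, had 24.97, 26.6 and 41.97 FPKM after TAC, against 3.71, 3.83 and 6.49 FPKM in sedentary CF. The log2 difference was 2.50 ± 0.29 (SE; adjusted p = 3.06e-06, limma), with no overlap between the groups. Mrpl14 (2.39) and Mrpl52 (2.29) came next. Mrps2 had -0.39 and Mrps18b -0.17, neither of which passed, and Mrpl12 had 0.37 and did not pass. With length and GC removed 50 genes were higher (38.5% of all genes) and 2, Mrpl17 and Mrpl41, lower (20.1%). With length alone 45 were higher (39.9%) and none lower (22.2%). Mrps18a, with 0.70, had -0.09 after removal of length and GC. Relative to genes of like length, 56 of the 73 lay above the median, with a median excess of 0.50. The cardiomyocyte markers summed to 575, 173 and 736 FPKM after TAC, against 190, 62.3 and 336 FPKM in sedentary CF. In 2 of the 3 TAC libraries they exceeded every sedentary library, and 6 of 10 tested were called higher (median 1.27). Their part in the result was not tested.

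Mitoribosomal protein genes were also higher after swimming. After 4 days of swimming 57 of 73 genes rose (38.2% of all genes tested) and none fell (26.3%), with a median of 1.07 against 0.13. Mrpl14 had 13.6, 29.2 and 13.2 FPKM, against 1.90, 2.23 and 4.63 FPKM in sedentary CF, a log2 difference of 2.30 ± 0.34 (SE). The second swim library was the highest of the 3 for this gene. Mrpl52 (2.22) and Mrps21 (2.07) followed. With length and GC removed 50 genes were higher (38.9%) and 1, Mrpl17, lower (19%). With length alone 51 were higher (40%) and 1 lower (19.5%). Relative to genes of like length the median excess was 0.54, with 57 of 73 above. Endothelial markers summed to 10.5 to 13.4 FPKM after 4 days of swimming and 39.9 to 55.5 FPKM in sedentary CF (6 of 6 lower), and pericyte and smooth muscle markers to 2.83 to 6.00 FPKM after swimming and 15.8 to 26.3 FPKM in sedentary CF (4 of 4 lower). After 10 days of swimming 53 of 73 genes rose (30% of all genes) and none fell (13.6%), with a median of 0.70 against 0.14. Mrpl52 (1.61), Mrpl33 (1.55) and Mrps21 (1.46) had the largest differences. Scaling the libraries to the same median left 43 genes higher (23.4% of all genes) and none lower (21.1%). It moved the share of higher genes among all genes called to 52.6% from 68.7%. With length and GC removed 37 were higher (29.4%) and none lower (8.91%), with 34 of the 53 calls remaining. With length alone 41 were higher (29.1%) and none lower (8.99%). Relative to genes of like length the median excess was 0.34, with 60 of 73 above. Endothelial markers summed to 20.5 to 27.8 FPKM after 10 days of swimming, below the 39.9 to 55.5 FPKM of sedentary CF (4 of 6 lower). Pericyte and smooth muscle markers summed to 7.68 to 11.6 FPKM, below the 15.8 to 26.3 FPKM of sedentary CF (2 of 4 lower). The part of these markers in the results after swimming was not tested.

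After MI none of 73 genes was called higher (8.93% of all genes) or lower (2.34%) by limma. At an unadjusted p under 0.05 (limma), 2 were higher (18.3% of all genes) and none lower (5.96%). The authors' deposited table called 1 higher (9.7% of all genes with a test there) and none lower (3.26%). The median was 0.17, against 0.10 over all genes. Mrpl28 came nearest, with 2.58 and 2.68 FPKM after MI, against 0.98, 0.99 and 1.60 FPKM in sedentary CF. The libraries did not overlap, and the adjusted p was 0.0737 (limma), or 0.0212 with length and GC removed. With either correction 1 gene was higher (10.3% of all genes with length, 10.9% with length and GC) and none lower (2.75% and 3.09%). In 13 of 73 genes both MI libraries lay above the sedentary ones, as in 30.4% of all genes. Without CF sedentary library 3, 2 genes were higher (11% of all genes). Scaled to the same median, the higher share of all calls was 56.9% instead of 79.2%. Only 2 MI libraries were measured. No MI sham group was given, so effects of surgery and of MI cannot be told apart here. Fibroblast markers summed to 2380 to 2736 FPKM after MI and 1110 to 1365 FPKM in sedentary CF (4 of 10 higher, 1 lower). Leukocyte markers summed to 692 to 726 FPKM after MI and 383 to 532 FPKM in sedentary CF (0 of 7 called). Cardiomyocyte markers summed to 199 to 229 and 62.3 to 336 FPKM (0 of 10 called). The part of these markers in the result was not tested.

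Between sham and sedentary CF, none of 73 genes was called higher (0.0212% of all genes) or lower (0%) by limma. At an unadjusted p under 0.05 (limma) the counts were also 0 and 0 (5.6% and 1.26% of all genes). The authors' deposited table called none (1.39% of all genes higher and 0.545% lower there). The summed level was 195 ± 13.9 FPKM in sham (SD, n = 2) and 194 ± 54.4 FPKM in sedentary CF (SD, n = 3).

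**Figure D5:**
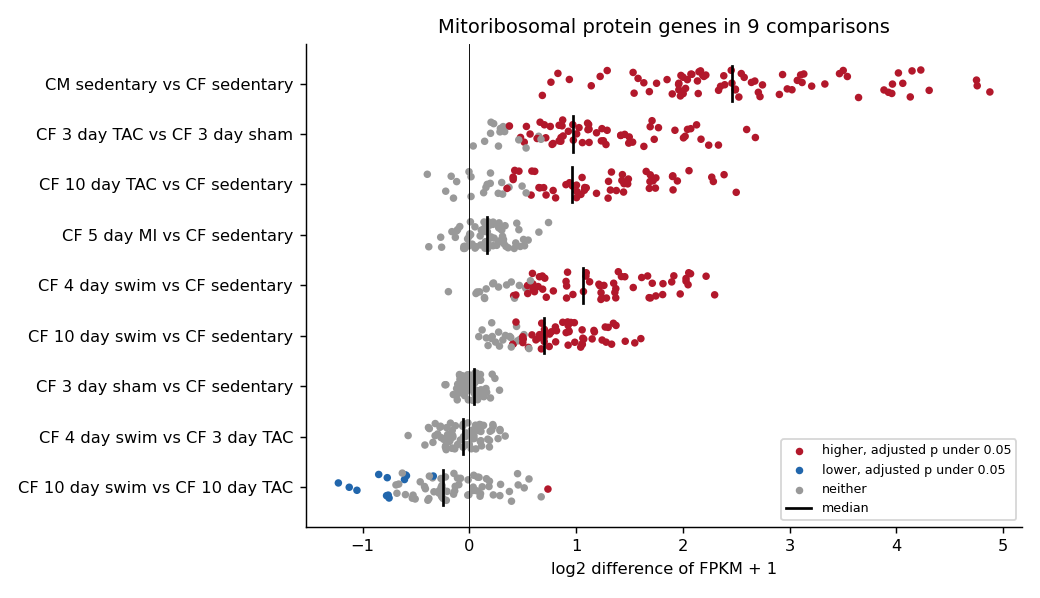
log2 difference of FPKM + 1 (horizontal axis) for each mitoribosomal protein gene in 9 comparisons (rows); each point is 1 gene, coloured by its call, and the black bar is the median. The medians run from 2.46 in CM against sedentary CF to -0.25 in 10 day swim against 10 day TAC.

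Swimming and TAC were then set against each other. Between 4 days of swimming and 3 days of TAC none of 73 genes was called higher (5.2% of all genes) or lower (3.66%) by limma. At an unadjusted p under 0.05 (limma) none was higher (11.9% of all genes) and 2 were lower (9.74%). The authors' deposited table called none (3.4% of all genes higher and 4.83% lower there). The median was -0.06, and the days differ. With length removed none was higher (5.84%) and 1 lower (4.21%), and with length and GC none was higher (5.82%) or lower (4.06%). Between 10 days of swimming and 10 days of TAC, 12 genes were lower in swimming (13.2% of all genes) and 1 was higher (10.9%), with a median of -0.25 against 0.02. The share of lower genes was thus close to that of all genes. Mrpl34 had 3.63, 5.68 and 2.97 FPKM after swimming, against 9.50, 7.80 and 16.1 FPKM after TAC, a log2 difference of -1.23 ± 0.32 (SE; adjusted p = 0.0110, limma). Mrps16 (-1.13) and Mrpl14 (-1.05) were also lower. In 29 of 73 genes every swim library lay below every TAC library (25.1% of all genes), and in 7 above (24.5%). With length and GC removed 7 were lower (11.5%) and 1 higher (9.64%), and with length alone 11 (14.6%) and 1 (11.8%). The only higher gene, Mrpl46, had 4.06, 3.04 and 4.26 FPKM after swimming, against 2.03, 2.32 and 1.32 FPKM after TAC. Its GENCODE M21 locus overlaps that of Mrps11 on the other strand, whereas their loci in the deposited table do not overlap. These counts moved with single libraries, as did the shares of all genes. Without TAC library 3 (8.01% of all genes lower) or swim library 1 (6.82%) 1 gene was lower. Without swim library 3 (7.01%) 2 were lower, and without TAC library 2 (10.4%) 7. Without TAC library 1 (11%) 11 were lower, and without swim library 2 (13.1%) 15. The difference in time course between swimming (10 against 4 days) and TAC (10 against 3 days) was called in 581 of 9425 genes and in 0 of the 73.

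Other lists of mitochondrial translation had their own counts in fibroblasts. After 3 days of TAC 3 of 8 translation factors rose (median 0.15), 2 of 7 tRNA synthetases (0.02) and 6 of 19 assembly factors (0.19), and none of these fell. The counts that rose are near the share over all genes tested (31.3% higher), of which 25.8% were lower. Of 7 mitoribosomal proteins with other symbols 6 rose (median 1.21). Tufm had 1.03 and Mpv17l2, an assembly factor, 1.80. Respiratory chain subunits had 74 of 81 higher (median 1.90), and cytosolic ribosomal proteins 73 of 76 (1.80). Of 7 biogenesis regulators 1, Esrra (1.10), rose and 4 fell, Myc (-1.17) and Gabpa (-1.13) among them. Lars2, which codes for the mitochondrial leucyl-tRNA synthetase, had 3.80. After 4 days of swimming the medians were 0.29 for translation factors, 1.87 for respiratory chain subunits and 2.12 for cytosolic ribosomal proteins, and after MI they were 0.12, 0.23 and 0.23.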

How the data were processed

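Expression values were the authors' deposited FPKM per gene and library (Cufflinks 2.0.2 and mm10, per the submitters' processing notes); the aligner is not given in the sources used here, and FPKM gives no absolute depth. The authors' deposited table of group comparisons gives log2 fold, p-value and q-value columns, and its calls (q under 0.05, group names matched by name) were used as an alternative. Genes at 1 FPKM or more in at least 2 libraries were tested on log2(FPKM + 1) with limma 3.58.1 (trend and robust settings; R 4.3.3), which understates the change of low genes; 19 CF libraries entered the fibroblast comparisons and all 22 the CM comparison. Benjamini-Hochberg adjusted p under 0.05 was a call. Transcript lengths and GC were medians over GENCODE M21 transcripts, which may differ from the transcript models behind the FPKM values (Mrps16 has 2572 and Mrpl51 3427 bases here), so length-based values share that uncertainty; trends were removed with natural splines of 4 degrees of freedom. The test was tested on simulated data. The genes named were, per comparison, the largest called differences (6 each way for CM, 3 otherwise), a fixed set, the highest and lowest by level, and the 3 largest of each pathway list where given. Members and lists were chosen with earlier results of these data known. In GENCODE M21, 4 members overlap a protein-coding gene on their strand (Mrpl53, Mrps34, Mrps6 and Mrps24, which overlaps Urgcp) and 23 overlap one on the other strand. Whether the authors' counting used strand is not given in the sources used here, so how reads were divided there is uncertain.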

Additional observations from a re-analysis of the deposited data

How the results depend on the processing

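Under the alternatives run, 73 to 76 of 76 genes were higher in sedentary CM than in sedentary CF, and none was lower. Over all genes tested, 27.1 to 42.3% were higher and 25.9 to 40.8% lower. The exception was the filter at 5 FPKM, which left 67 genes, all higher (42.6% of all genes). Against the other 6 CF groups 68 to 76 were higher (34.3 to 36.2% of all genes), with medians of 1.49 to 2.42. With a pseudocount of 0.1 the median against sedentary CF was 2.97. With the replicate block 76 genes were higher (41.8% of all genes), and 74 with block, length and GC (42.3%). The replicate numbers did not pair the libraries by the rule used (correlations of deviations 0.243, 0.312 and 0.0558 for numbers 1, 2 and 3; every CM library, but not every CF library, correlated best with its own number).

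With the filter at 5 FPKM, 38 of 44 genes tested were higher after 3 days of TAC (41.5% of all genes). None was higher in 10 day swim against 10 day TAC (14.9%). In that comparison 5 were higher (15.8% of all genes) and 19 lower (17.6%) with only the 2 groups. There were 7 lower with no filter (7.26%) or with length and GC removed (11.5%). Leaving out 1 library gave 0 to 2 higher (3.56 to 13.1%) and 1 to 15 lower (6.82 to 13.1%). Lower genes numbered 2 after 10 days of TAC with length and GC removed (20.1% of all genes), and 0 to 1 without 1 library (20.4 to 29.9%). After 4 days of swimming 1 was lower with length (19.5%), or length and GC (19%), removed. In 4 day swim against 3 day TAC 1 was lower with length removed (4.21%), and 0 to 1 without 1 library (1.8 to 3.24%). After MI, 1 gene was higher with a pseudocount of 0.1 (8.36% of all genes), and with length (10.3%) or length and GC (10.9%) removed. The count was also 1 with only the 2 groups (5.81%) and in the authors' deposited table (9.7%). It was 0 to 2 without 1 library (2.48 to 11%). It was 2 without both dated sedentary libraries (11%), a choice made after seeing the data. Mrps18a after 10 days of TAC had -0.086 with length and GC removed, and Mrpl11 after 4 days of swimming -0.047 with length, and -0.046 with length and GC, removed. These corrections take out the part of a difference shared by genes of like length. Leaving out 1 library gave 48 to 59 higher genes after 3 days (23.4 to 30.7% of all genes) and after 10 days of TAC (34.8 to 40.2%). It gave 51 to 67 for the 4 day swim (34.9 to 40.1%) and 41 to 63 for the 10 day swim (22.6 to 32.5%). Of the single genes' values, 112 lost and 28 gained their call, over all alternatives. FPKM carries no read depth, so the precision behind low values is unknown. The same-median scaling shifted the median of all genes to -0.03 after MI, 0.03 after 10 days of swimming and -0.01 in sham.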
